A study of Homo sapiens with 6 samples.

Results

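The 10 genes described here encode ETS factors, grouped here as factors downstream of the kinase ERK. For ETV6 and ELF1 no link to ERK is described below. All 10 genes were taken by symbol from the deposited tables, where each matched 1 row in both tables. They are 10 of 26286 genes in either table. RNA was measured by sequencing in HT-1080 cells, an established human fibrosarcoma line, with 2 libraries in each of 3 groups. The first group received 500 nM pimasertib, which blocks MEK1 and MEK2, the kinases that activate ERK, for 48 h. The second received 2 µM palbociclib, an inhibitor of the cell cycle kinases CDK4 and CDK6, for 48 h, and the third received the vehicle DMSO. All groups share the same line and medium, and the labels name no genetic change. HT-1080 cells are known to carry an activated NRAS allele, which drives the RAS, RAF, MEK and ERK cascade. Nothing in the labels ties the numbered replicates to separate cultures. The p-values therefore reflect the spread among these libraries alone, and that spread may be technical.

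ETS factors are transcription factors that share a DNA-binding domain for sites built around a GGAA core. ERK reaches them in more than 1 way. It phosphorylates ETS1, ETS2 and the ternary complex factors ELK1, ELK3 and ELK4, which bind serum response elements together with SRF, and it relieves the repressor CIC, which otherwise holds down transcription of ETV1, ETV4 and ETV5. These last 3 form the PEA3 group of activators. ETV6 is a repressor, and ELF1 belongs to a separate branch of the family. Pimasertib acts upstream of ERK, whereas palbociclib stops the cell cycle at a point downstream of it.

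Library totals ranged from 13607490 to 17500655 counts, and a count of 3 corresponded to 0.168 to 0.220 CPM, a unit of counts scaled to library size. The share of counts from 13 mitochondrially encoded genes was 4.25% and 8.76% in pimasertib, 4.57% and 6.31% in palbociclib and 3.21% and 5.67% in DMSO, and was higher in replicate 2 of every group. The mesenchymal label was checked on 9 markers, which summed to 10068 and 13838 CPM in pimasertib, 3926 and 6081 CPM in palbociclib and 2464 and 3899 CPM in DMSO. The sums came mostly from SPARC, FN1 and VIM, while THY1 was at 0 to 0.304 CPM and S100A4 at 0.231 to 5.71 CPM. COL1A1 was at 1.82 and 6.70 CPM and PDGFRB at 2.25 and 6.02 CPM in DMSO. Of 7 epithelial markers 5 were listed, with sums of 1.50 to 4.76 CPM and CDH1 at 0 in 5 of 6 libraries. The 7 leukocyte markers summed to 0.388 to 1.04 CPM. Of 6 endothelial markers 5 were listed and summed to 132 to 343 CPM, almost wholly from TIE1 at 130.2 to 341 CPM, while CDH5 and VWF stayed below 0.305 CPM. Of 8 tested mesenchymal markers 5 rose in pimasertib, none was called lower, and none was called in palbociclib against DMSO. Over all tested genes 3.54% were called in palbociclib against DMSO, and 11.1% higher and 11.7% lower in pimasertib against DMSO. SPARC (log2 fold change 2.77, edgeR adjusted p = 0.00116) and PDGFRB (3.68, adjusted p = 1.96e-04) passed whichever library was left out, with PDGFRB at 4.55 without DMSO replicate 2. COL1A1 (6.06, edgeR adjusted p = 0.00143) was at 5.39 without DMSO replicate 1 (adjusted p = 0.336) and at 7.26 without DMSO replicate 2 (adjusted p = 0.191). It also lost the call with no filter (adjusted p = 0.169). FN1 (1.44, edgeR adjusted p = 0.0344) and CDH2 (0.84, adjusted p = 0.0420) lost the call without DMSO replicate 1 (0.156 for FN1, 0.249 for CDH2), pimasertib replicate 1 (0.0800 and 0.0899) or pimasertib replicate 2 (adjusted p of 0.227 and 0.238), and FN1 was at 2.09 without DMSO replicate 2. VIM had a log2 fold change of -0.75 against DMSO (edgeR adjusted p = 0.0505) and S100A4 one of -0.69 (adjusted p = 0.669). In palbociclib against DMSO 7 of the 8 log2 fold changes were positive and 1 negative. FN1 was at 1.36 there (edgeR adjusted p = 0.119) and COL1A1 at 2.68 (adjusted p = 0.118). Between pimasertib and palbociclib FN1 differed by 0.07 (edgeR adjusted p = 0.932). In the direct comparison with palbociclib, 4 of the 8 tested markers were higher in pimasertib and 1 lower. Over all tested genes 5.07% were called higher and 4.31% lower there. The 4 were PDGFRB (3.59, edgeR adjusted p = 2.93e-04), COL1A1 (3.38, 0.0240), SPARC (2.18, 0.00675) and CDH2 (1.15, 0.0206). Without 1 library COL1A1 ranged from 2.53 to 5.77, SPARC from 1.86 to 2.60 and CDH2 from 0.95 to 1.38. COL1A1 lost this call with no filter (edgeR adjusted p = 0.438) and with only the 4 libraries of the comparison (0.325). The call of COL1A1 was also lost with the replicate number as a block (edgeR adjusted p = 0.139) and with DESeq2 (adjusted p = 0.0563). Against palbociclib VIM was lower in pimasertib (-0.91, edgeR adjusted p = 0.0426), a call lost without palbociclib replicate 1 (0.252) or 2 (adjusted p = 0.0565) or pimasertib replicate 1 (0.106) or 2 (adjusted p = 0.323). All 7 proliferation genes, among them MKI67, fell in both drugs, and their sums were 888 and 739 CPM in pimasertib, 683 and 595 CPM in palbociclib and 2863 and 2172 CPM in DMSO. In pimasertib, TOP2A and CCNA2 lost the call without DMSO replicate 1 (edgeR adjusted p of 0.0875 and 0.0709) or pimasertib replicate 2 (0.185 and 0.184). In palbociclib, MCM5 passed in 1 of 6 fits that left out 1 library, with 0.0966 without DMSO replicate 1, 0.0536 without palbociclib replicate 1, 0.133 without palbociclib replicate 2, 0.0595 without pimasertib replicate 1 and 0.0584 without pimasertib replicate 2. Set directly against palbociclib, 1 of the 7 proliferation genes was called, CCNA2, which was higher in pimasertib (1.49, edgeR adjusted p = 0.00386). Its log2 fold change in that comparison ranged from 1.22 to 1.72 without 1 library. Of the 7 log2 fold changes there, 6 were positive. The part of these differences in the results below was not tested. In bulk RNA, fewer cells that express a gene and less RNA per cell cannot be told apart.

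Promoter sequences are shown for the 2 windows that held a searched motif, so that the letters behind each match can be read. RefSeq promoter windows on GRCh38.p14 (250 bases before to 50 after a start site) were at hand for 7 of the 10 genes, 16 windows in all, and were not used here for ETV4, ETV5 and ETS1. The motifs, sought on both strands, were the CIC octamers TGAATGAA and TGAATGGA, the ETS site CCGGAAGT, the AP-1 site TGACTCA, which reads TGAGTCA on the other strand, and the CArG box of SRF. These letters were found in 1.65%, 1.03%, 4.14%, 4.95% and 1.29% of 35116 windows, in that order. The first window belongs to ETV1 (chr7:13991376-13991675, minus strand), where capitals mark the octamer TGAATGGA from base -125 to base -118 before the start site. The second belongs to ELK4 (chr1:205631962-205632261, minus strand), where capitals mark CCGGAAGT from base -22 to base -15.
ETV1: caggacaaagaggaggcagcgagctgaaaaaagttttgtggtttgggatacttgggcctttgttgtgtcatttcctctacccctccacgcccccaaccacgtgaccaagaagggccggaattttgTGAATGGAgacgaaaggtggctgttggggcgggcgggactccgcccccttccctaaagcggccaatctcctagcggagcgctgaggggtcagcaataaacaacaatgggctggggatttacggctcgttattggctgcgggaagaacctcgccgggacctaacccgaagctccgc
ELK4: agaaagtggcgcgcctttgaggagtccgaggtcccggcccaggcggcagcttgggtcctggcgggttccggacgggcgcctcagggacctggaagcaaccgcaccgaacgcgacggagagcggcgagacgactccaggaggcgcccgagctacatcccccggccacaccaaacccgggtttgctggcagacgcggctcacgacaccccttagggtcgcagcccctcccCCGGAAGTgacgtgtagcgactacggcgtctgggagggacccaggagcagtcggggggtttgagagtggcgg
The other 5 windows of ETV1 and those of ETS2, ELK1, ELK3, ETV6 and ELF1 held none of these letters. A match describes the letters only and is not evidence of binding.

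Under pimasertib the 3 genes of the PEA3 group fell, ELK3 and ELK1 fell less, and ETS2 rose, while ETS1, ELK4, ETV6 and ELF1 did not pass the test. Of the 10 genes 5 were called lower and 1 higher than in DMSO, at an adjusted p under 0.05 by edgeR's quasi-likelihood test. Over all 14839 tested genes 22.8% were called in this comparison, 11.7% lower and 11.1% higher. The median log2 fold change of the 10 genes was -0.69, against 0.00 over all tested genes.

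**Figure D1:**
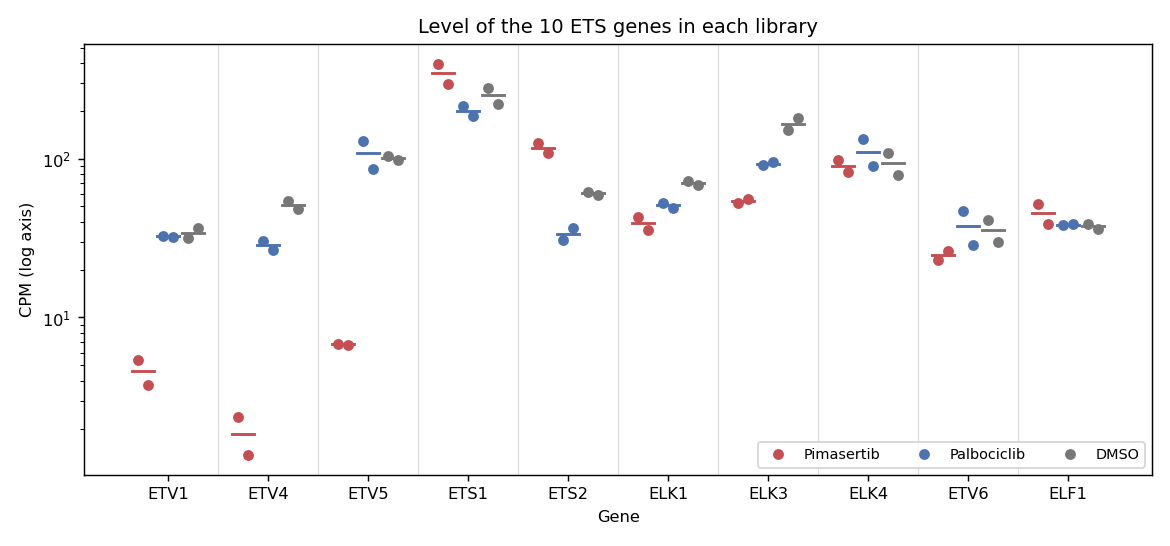
CPM of each of the 10 ETS genes on a log axis, with 1 point per library (n = 2 per group) and a bar at the group mean, for pimasertib, palbociclib and DMSO. ETV1, ETV4 and ETV5 lie between 1.36 and 6.86 CPM in the pimasertib libraries and between 26.7 and 129.6 CPM in the other 4.

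ETV4, a PEA3 activator often used as a readout of ERK activity (ENSG00000175832, minus strand of chromosome 17, GRCh37 41605212 to 41656988), was at 2.36 and 1.36 CPM in pimasertib, 30.4 and 26.7 CPM in palbociclib and 53.8 and 48.2 CPM in DMSO. Those are 41 and 21 counts in the pimasertib libraries and 885 and 712 counts in DMSO. The 3 groups did not overlap, with pimasertib lowest and palbociclib between. The fold change against DMSO was 27.1-fold lower in pimasertib, a log2 fold change of -4.76 (SE 0.29; edgeR adjusted p = 1.04e-05). It was the lowest log2 fold change of the 10 genes in this comparison.

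ETV5, the PEA3 member with the highest FPKM here (ENSG00000244405, minus strand of chromosome 3, 185764097 to 185828107), was at 6.86 and 6.73 CPM in pimasertib, 129.6 and 86.3 CPM in palbociclib and 103 and 98.5 CPM in DMSO. The pimasertib libraries lay below the other 4, while the palbociclib libraries spanned those of DMSO. ETV5 was 14.8-fold lower in pimasertib than in DMSO, a log2 fold change of -3.89 (SE 0.26; edgeR adjusted p = 1.81e-05). DGKG, a diacylglycerol kinase gene that overlaps ETV5 on the same strand, also fell, from a lower level, with 5.65 and 6.02 CPM in pimasertib and 19.3 and 13.4 CPM in DMSO (log2 fold change -1.49, SE 0.27, edgeR adjusted p = 0.00364). The sources used here do not give whether counting used the strand or how reads in overlaps of 2 genes were counted. On the opposite strand, DHX8 overlaps ETV4 and was at 102 and 82.3 CPM in pimasertib and 146 and 98.3 CPM in DMSO. DHX8 (log2 fold change -0.41, edgeR adjusted p = 0.282) and WBP4, which overlaps ELF1 on the opposite strand (-0.34, adjusted p = 0.309), were not called in pimasertib against DMSO. The antisense gene ETV5-AS1 had 0 to 4 counts per library.

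ETV1, the third PEA3 gene (ENSG00000006468, minus strand of chromosome 7, 13930853 to 14031050), was at 5.42 and 3.75 CPM in pimasertib, 32.5 and 32.3 CPM in palbociclib and 31.5 and 36.4 CPM in DMSO. Again only the pimasertib libraries stood below the rest. The decrease against DMSO was 7.37-fold, a log2 fold change of -2.88 (SE 0.25; edgeR adjusted p = 7.17e-05). For ETV1, ETV4 and ETV5 the call held in each of the 6 fits that left out 1 library. The window with the CIC octamer printed above belongs to this gene, and any part of CIC in the decrease was not tested.

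ELK3, also known as Net, is a ternary complex factor that represses SRF target genes until ERK phosphorylates it (ENSG00000111145, plus strand of chromosome 12, 96588160 to 96663613). Its level was 52.3 and 55.4 CPM in pimasertib, 90.8 and 95.0 CPM in palbociclib and 151 and 179.6 CPM in DMSO. The 3 groups were in this order with no overlap. ELK3 was 3.06-fold lower in pimasertib than in DMSO, a log2 fold change of -1.62 (SE 0.21; edgeR adjusted p = 5.38e-04), and the call also passed whichever of the 6 libraries was left out.

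ELK1, the founding ternary complex factor and a direct ERK substrate (ENSG00000126767, minus strand of chromosome X, 47494920 to 47510003), was at 43.1 and 35.5 CPM in pimasertib, 52.6 and 49.2 CPM in palbociclib and 72.2 and 68.4 CPM in DMSO. The groups kept the order seen in ELK3, over a narrower range. The decrease in pimasertib was 1.79-fold (log2 fold change -0.84, SE 0.20, edgeR adjusted p = 0.0137). The adjusted p was 0.0544 without DMSO replicate 1 and 0.116 without pimasertib replicate 2.

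ELK4, also called SAP1, is the third ternary complex factor (ENSG00000158711, minus strand of chromosome 1, 205577071 to 205601090). It was at 98.7 and 81.9 CPM in pimasertib, 132 and 89.3 CPM in palbociclib and 108 and 78.8 CPM in DMSO. All 3 groups overlapped, and the log2 fold change in pimasertib was -0.05 (SE 0.26; edgeR adjusted p = 0.904). It turned to 0.20 without DMSO replicate 1, so no direction is given.

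ETS2, an activator that ERK phosphorylates next to its pointed domain (ENSG00000157557, plus strand of chromosome 21, 40177231 to 40196879), was at 126 and 109 CPM in pimasertib, 30.6 and 36.3 CPM in palbociclib and 61.7 and 59.0 CPM in DMSO. Unlike the PEA3 genes, its pimasertib libraries were the highest, and its palbociclib libraries the lowest, with no overlap of the groups. In pimasertib ETS2 was 1.94 times the DMSO level (log2 fold change 0.96, SE 0.20, edgeR adjusted p = 0.00798). The adjusted p was 0.0591 without pimasertib replicate 1.

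ETS1, the paralogue of ETS2 (ENSG00000134954, minus strand of chromosome 11, 128328656 to 128457437), was at 397 and 295 CPM in pimasertib, 214 and 186 CPM in palbociclib and 279 and 222 CPM in DMSO. The order of the groups was that of ETS2, but its replicates lay further apart on the log2 scale than those of ETS2 in pimasertib and DMSO. The log2 fold change in pimasertib was 0.47 (SE 0.24; edgeR adjusted p = 0.193). ETV6, the repressor (ENSG00000139083, plus strand of chromosome 12, 11802788 to 12044558), was at 23.1 and 26.1 CPM in pimasertib, 46.5 and 28.6 CPM in palbociclib and 41.0 and 30.0 CPM in DMSO. Its pimasertib libraries were the lowest but the change did not pass (log2 fold change -0.53, SE 0.27, edgeR adjusted p = 0.177). ELF1, known from lymphoid and endothelial genes (ENSG00000120690, minus strand of chromosome 13, 41506056 to 41635576), was at 52.1 and 38.7 CPM in pimasertib, 38.0 and 38.7 CPM in palbociclib and 39.0 and 36.1 CPM in DMSO. A single pimasertib library exceeded the others, and the log2 fold change was 0.27 (SE 0.21; edgeR adjusted p = 0.374).

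In palbociclib no gene of the PEA3 group passed the test, and ETV4 had the lowest log2 fold change among the 3. Of the 10 genes 1 was called, ETS2, which fell, and none rose; over all tested genes 3.54% were called, 2.44% lower and 1.11% higher. ETS2 changed by -0.85 on the log2 scale (SE 0.20; edgeR adjusted p = 0.0491), and it passed in none of the 6 fits that left out 1 library, where the adjusted p was 0.0600 to 0.229. ELK3 had a change of similar size that missed the threshold (log2 fold change -0.83, SE 0.20, edgeR adjusted p = 0.0524), as did ETV4 (-0.84, SE 0.24, adjusted p = 0.0915). Both passed with no filter (edgeR adjusted p of 0.0283 for ELK3 and 0.0284 for ETV4). With the replicate number as a block, ELK3 (3.58e-04), ETV4 (0.00265) and ELK1 (0.0233) passed, in a fit that called 2953 genes in all. The authors' deposited table has both ETS2 and ELK3 past an adjusted p of 0.05 in this comparison, both lower, and for pimasertib it has the same 6 genes past it that edgeR called. ELK1 was at -0.47 (SE 0.20, adjusted p = 0.246). The remaining log2 fold changes were -0.33 for ETS1, -0.07 for ETV1, 0.10 for ETV5, 0.24 for ELK4, 0.08 for ETV6 and 0.03 for ELF1, with adjusted p of 0.538 to 0.962.

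**Figure D2:**
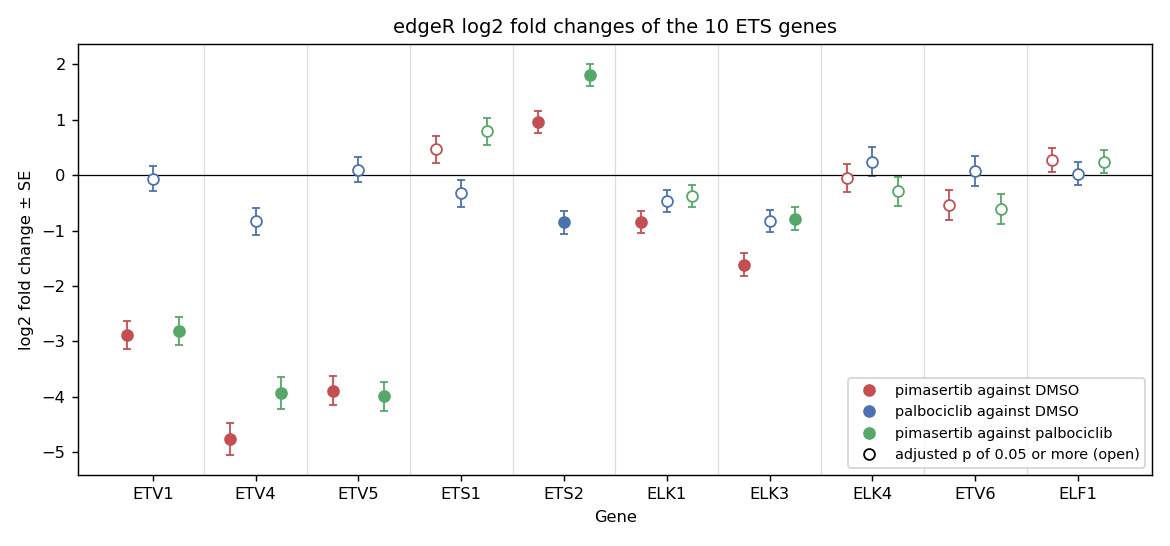
edgeR log2 fold changes of the 10 ETS genes with SE bars in 3 comparisons, with filled points at an adjusted p under 0.05. The PEA3 genes lie between -4.76 and -2.81 in both comparisons with pimasertib, and ETS2 lies at 0.96 against DMSO in pimasertib and at -0.85 in palbociclib.

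The direct comparison of pimasertib with palbociclib is the test of whether the effects of the drugs differed, since both share the DMSO libraries. Of the 10 genes 4 were lower and 1 higher in pimasertib; over all tested genes 9.39% were called, 4.31% lower and 5.07% higher. ETV5 was 15.9-fold lower (log2 fold change -3.99, SE 0.26, edgeR adjusted p = 2.45e-05), ETV4 15.2-fold lower (-3.92, SE 0.29, adjusted p = 4.65e-05) and ETV1 7.03-fold lower (-2.81, SE 0.25, adjusted p = 1.06e-04) in pimasertib. ETS2 was 3.50 times as high in pimasertib as in palbociclib (log2 fold change 1.81, SE 0.21, edgeR adjusted p = 4.42e-04). Each of these 4 calls passed whichever library was left out. ELK3 was 1.72-fold lower in pimasertib (log2 fold change -0.79, SE 0.20, edgeR adjusted p = 0.0369). That call was lost when palbociclib replicate 1 (0.133) or 2 (adjusted p = 0.0930) or pimasertib replicate 1 (0.181) or 2 (adjusted p = 0.186) was left out. ETS1 did not pass at 0.79 (SE 0.24, edgeR adjusted p = 0.0735). It did pass with no filter (edgeR adjusted p = 0.0280), with only the 4 libraries of the comparison (0.0422) and with DESeq2 (adjusted p = 0.0134). Without 1 library its log2 fold change ranged from 0.56 to 0.98. ETV6 did not pass at -0.61 (SE 0.27, adjusted p = 0.189), but it did without palbociclib replicate 2 (adjusted p = 0.0398). ELK1, ELK4 and ELF1 were at -0.37, -0.29 and 0.24, with adjusted p of 0.274, 0.507 and 0.503.

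**Figure D3:**
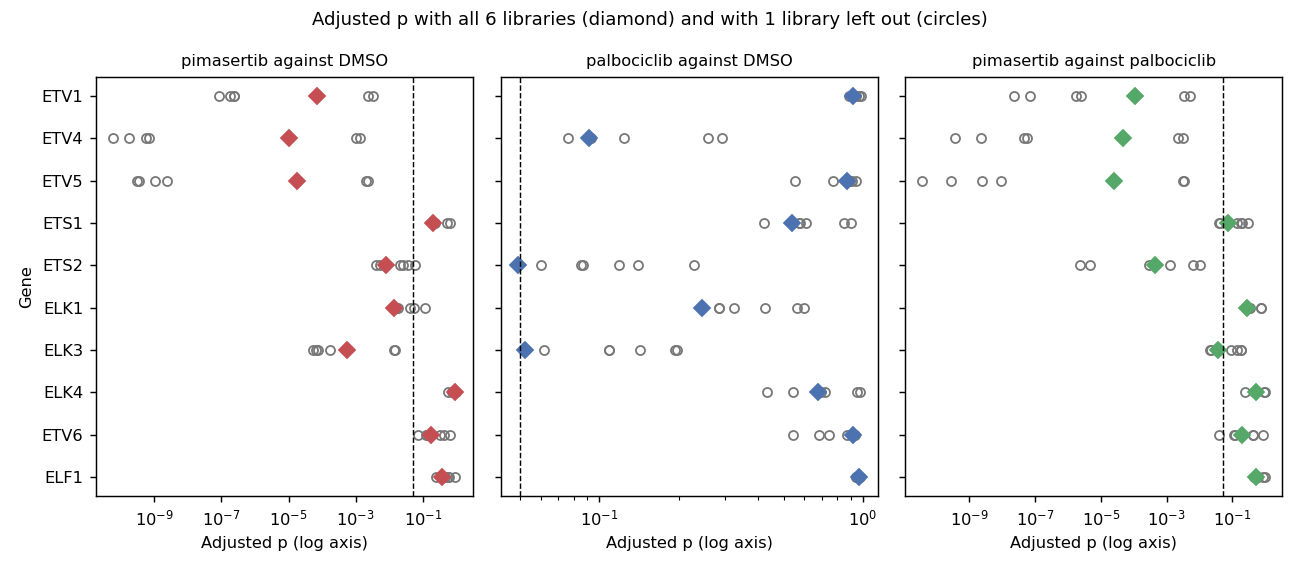
Adjusted p of each ETS gene on a log axis, with all 6 libraries (diamonds) and with 1 library left out in turn (circles), for 3 comparisons whose axes differ in range. The dashed line is at 0.05. ETV1, ETV4 and ETV5 stay left of it in every fit of both comparisons with pimasertib, and no circle of the palbociclib comparison does.

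Levels can be compared between genes only per length, and for this the FPKM values of the authors were used. In DMSO the order was ETS1 (48.0 ± 7.81 FPKM), ELK3 (38.6 ± 4.79), ELK1 (25.6 ± 0.982), ETV5 (24.1 ± 0.804), ETV4 (20.6 ± 1.61), ETV6 (15.8 ± 3.45), ETS2 (15.1 ± 0.475), ELF1 (10.3 ± 0.564), ELK4 (8.97 ± 2.00) and ETV1 (4.94 ± 0.499), as mean ± SD with n = 2. Neighbours in that order overlapped for ETV6 and ETS2 and for ELF1 and ELK4, and the other neighbours did not. In pimasertib ETS1 (67.9 ± 15.6 FPKM) and ETS2 (29.9 ± 3.77) led and did not overlap, followed by ELK1, ELK3, ELF1 and ETV6 at 11.1 to 14.7 FPKM, each of which overlapped with the next. The PEA3 genes were the last 3 in pimasertib, with ETV5 at 1.66 ± 0.0621, ETV4 at 0.772 ± 0.312 and ETV1 at 0.683 ± 0.191 FPKM, and the last 2 overlapped. In palbociclib ETS1 (39.4 ± 3.45 FPKM) was again first and ETV1 (4.85 ± 0.0374) last, while ETS2 was ninth at 8.60 ± 1.16 FPKM.

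The PEA3 group held 1.96% and 1.90% of the summed FPKM of the 10 genes in pimasertib, 26.5% and 23.6% in palbociclib and 23.1% and 23.8% in DMSO. ETS1 and ETS2 together held 62.2% and 58.8% in pimasertib, 26.9% and 29.2% in palbociclib and 31.2% and 28.2% in DMSO. The pimasertib libraries lay outside the range of the other 4 in both shares. The summed FPKM itself was 179 and 143 in pimasertib, 184 and 159 in palbociclib and 221 and 203 in DMSO, so the drug groups overlapped with each other and lay below DMSO. Shares and sums were not tested.

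**Figure D4:**
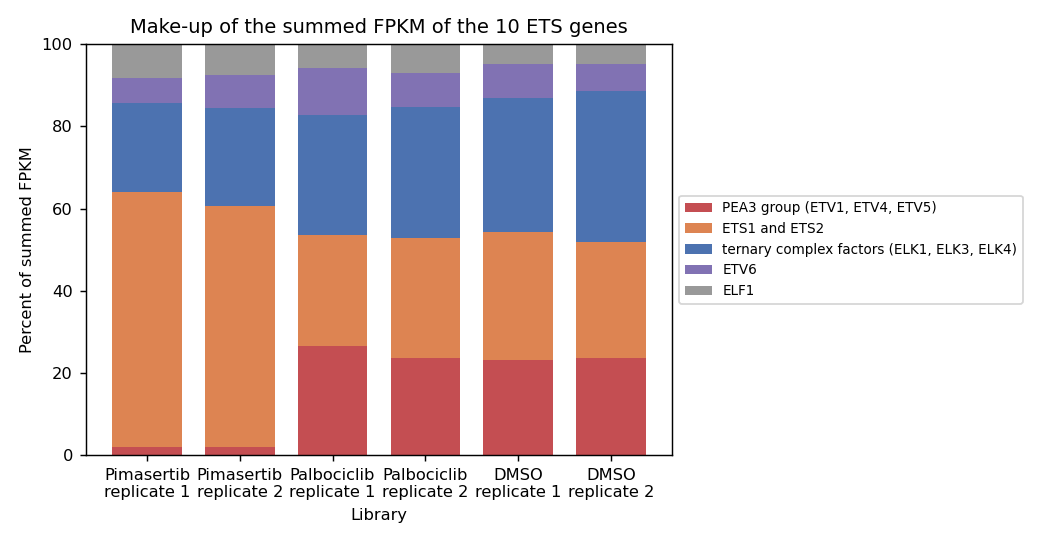
Percent of the summed FPKM of the 10 ETS genes held by the PEA3 group, ETS1 and ETS2, the ternary complex factors, ETV6 and ELF1, as 1 stacked bar per library. The PEA3 part is 1.96% and 1.90% in the pimasertib libraries and 23.1% to 26.5% in the other 4.

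Replicates of a group differed in these genes by -0.75 to 0.25 on the log2 scale, replicate 2 minus replicate 1. The widest gaps were those of ETV4 in pimasertib (-0.75), ETV6 in palbociclib (-0.70) and ETV5 in palbociclib (-0.59). Over all tested genes the median absolute gap was 0.30 in pimasertib, 0.33 in palbociclib and 0.35 in DMSO. The decreases of ETV1, ETV4, ETV5 and ELK3 in pimasertib were thus more than the gaps between replicates of those genes.

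Likeness to the called genes was measured as the root mean square difference of log2 CPM, centred on each gene's mean over the 6 libraries, among 9760 other protein-coding genes. The gene most like ETV4 was COL17A1 (0.193), followed by SPRY4 (0.390), a feedback inhibitor of receptor signalling, and EMP1 (0.396), with ETV5 at rank 5 and ETV1 at rank 24. For ETV5 they were SPRY2 (0.283), PLXNA4 (0.340) and SH3TC2 (0.347), and for ETV1 NLRP3 (0.167), GFPT2 (0.176) and HMGA1 (0.181). ETV4 was at rank 13 and ETV1 at rank 22 for ETV5, while ETV5 was at rank 92 and ETV4 at rank 212 for ETV1. Both sprouty genes are known ERK targets. ETS2 was most like C9orf3 (0.184), KLF11 (0.204) and IL17RC (0.217). For ELK3 the nearest were FIGNL1 (0.130), CHST2 (0.133) and PRDM8 (0.170), and for ELK1 TUBA1C (0.0434), KBTBD2 (0.0490) and TXLNG (0.0525). With 6 libraries in 3 groups, many genes fall into like patterns by treatment alone.

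Of the 18 other human ETS genes 15 were listed and 7 passed the filter on low counts. Of these 7, 1 was called in pimasertib against DMSO, beside 22.8% of all tested genes. FLI1, an ETS factor known from blood and endothelial cells and from fusions in Ewing sarcoma, was at 22.9 and 20.1 CPM in pimasertib, 55.1 and 41.8 CPM in palbociclib and 63.1 and 47.5 CPM in DMSO. It was the 1 of 7 that fell in pimasertib (log2 fold change -1.36, SE 0.23, edgeR adjusted p = 0.00274), and none of the 7 rose. It was also lower in pimasertib than in palbociclib (-1.17, SE 0.23, edgeR adjusted p = 0.0104), though not without palbociclib replicate 1 (adjusted p = 0.0529), pimasertib replicate 1 (0.0697) or pimasertib replicate 2 (adjusted p = 0.123). None of the 7 was called in palbociclib against DMSO. The ETS genes of other tissues did not pass the filter, with ELF3, EHF, SPDEF, SPI1, ELF5 and SPIB at 0 to 0.403 CPM.

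Among 11 genes that act on or with these factors, 2 rose in pimasertib and none fell, with a median log2 fold change of 0.01. Over all tested genes 11.1% were called higher and 11.7% lower in pimasertib against DMSO. ATXN1, which encodes a partner of the repressor CIC, was at 75.4 and 73.2 CPM in pimasertib, 38.3 and 44.4 CPM in palbociclib and 36.2 and 40.6 CPM in DMSO (log2 fold change against DMSO 0.95, SE 0.20, edgeR adjusted p = 0.00718). Against palbociclib it was higher by 0.85 (SE 0.20, edgeR adjusted p = 0.0223), but not past the threshold without palbociclib replicate 1 (adjusted p = 0.196), pimasertib replicate 1 (0.112) or pimasertib replicate 2 (adjusted p = 0.117). MKL1, a coactivator of SRF, rose by 0.60 (SE 0.19, edgeR adjusted p = 0.0439), and passed in 1 of 6 fits that left out 1 library. Its adjusted p was 0.143 without DMSO replicate 1, 0.152 without DMSO replicate 2, 0.0669 without palbociclib replicate 1, 0.144 without pimasertib replicate 1 and 0.127 without pimasertib replicate 2. CIC was at 235 and 244 CPM in pimasertib, 236 and 201 CPM in palbociclib and 215 and 215 CPM in DMSO, and SRF at 105 and 99.8, 94.3 and 76.4, and 125 and 97.7 CPM. Neither passed, with log2 fold changes in pimasertib of 0.16 (adjusted p = 0.631) and -0.12 (adjusted p = 0.715, and 0.07 on the log2 scale without DMSO replicate 1). None of the 11 was called in palbociclib against DMSO.

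**Figure D5:**
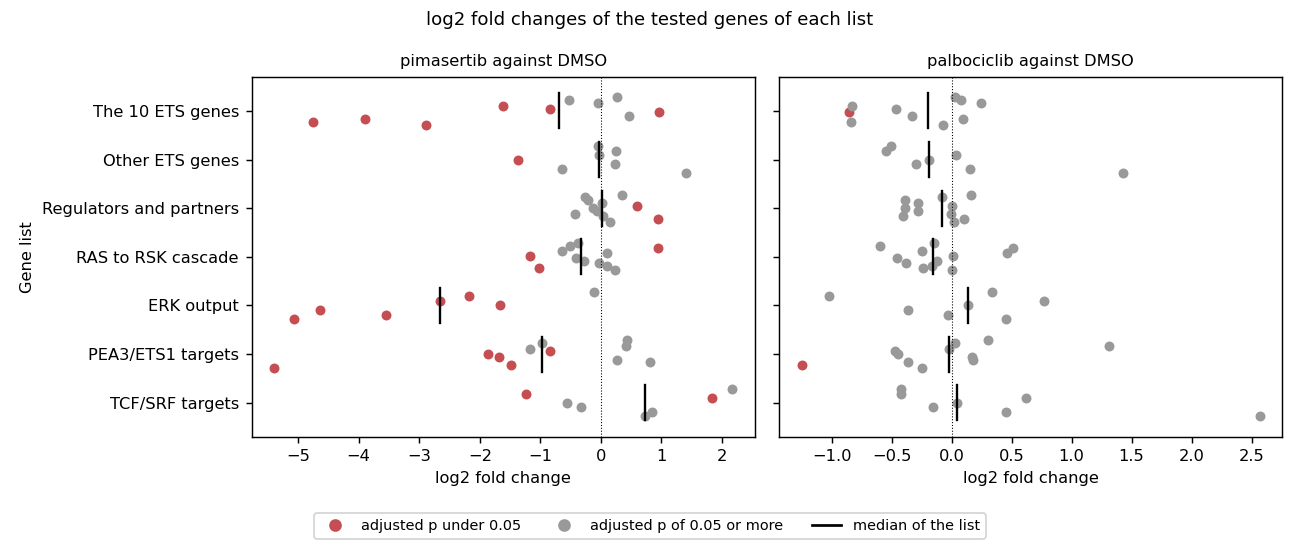
edgeR log2 fold changes of the tested genes of 7 lists, 1 point per gene, for pimasertib against DMSO and palbociclib against DMSO on axes of different range, with red points at an adjusted p under 0.05 and a bar at the median of the list. The ERK output genes have a median of -2.65 in pimasertib and 0.14 in palbociclib.

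Of 12 genes from RAS to ERK and its substrate RSK, 2 fell and 1 rose in pimasertib (median -0.33), and none was called in palbociclib against DMSO. The share called over all tested genes was 11.7% lower and 11.1% higher in pimasertib against DMSO. MAP2K1, which encodes the drug's target MEK1, fell by 1.18 on the log2 scale (SE 0.22; edgeR adjusted p = 0.00405, and 0.0600 without pimasertib replicate 2). HRAS had a log2 fold change of -1.02 (SE 0.22; edgeR adjusted p = 0.00786, but 0.0501 without pimasertib replicate 1 and 0.0799 without pimasertib replicate 2). MAPK3, which encodes ERK1, rose by 0.94 (SE 0.23; edgeR adjusted p = 0.0164). Leaving out DMSO replicate 1 gave an adjusted p of 0.0896, pimasertib replicate 1 0.0809 and pimasertib replicate 2 0.0851.

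Genes commonly read as ERK output, listed without ETV4 and ETV5, fell in 6 of 7 tested cases in pimasertib. None was called in palbociclib against DMSO. Over all tested genes 11.7% were called lower in pimasertib and 3.54% either way in palbociclib. In palbociclib 4 of the 7 log2 fold changes were positive and 3 negative. Among the negative ones EPHA2, outside the rule for named genes, was at -1.02 (edgeR adjusted p = 0.134). SPRY4 was at 2.07 and 2.72 CPM in pimasertib, 47.9 and 45.3 CPM in palbociclib and 68.7 and 50.9 CPM in DMSO. The pattern is that of the PEA3 genes, with the pimasertib libraries far below the other 4. DUSP4 (-5.07), SPRY4 (-4.64), SPRY2 (-3.56) and CCND1 (-2.65) had the lowest log2 fold changes of the list, with edgeR adjusted p of 1.04e-05, 8.76e-06, 1.04e-05 and 5.74e-04. DUSP6, the ERK phosphatase often used as a readout, did not pass the filter and was at 0 to 0.473 CPM in every library. EPHA4, singled out after its value was seen, was the tested gene that did not pass (-0.11, adjusted p = 0.762).

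Of 11 genes reported as targets of the PEA3 group or ETS1 in tumour cells, 5 were called lower in pimasertib and none higher. The median log2 fold change of the 11 was -0.98, and 4 of them were positive. Over all tested genes 3.54% were called in palbociclib against DMSO, and 11.7% lower and 11.1% higher in pimasertib against DMSO. MMP1, the interstitial collagenase, was at 0.576 and 1.03 CPM in pimasertib, 23.4 and 33.5 CPM in palbociclib and 20.4 and 47.2 CPM in DMSO (log2 fold change against DMSO -5.39, SE 0.49, edgeR adjusted p = 8.78e-05, and -4.67 on the log2 scale without DMSO replicate 2). PLAUR, the urokinase receptor, had a log2 fold change of -1.87 (edgeR adjusted p = 0.00513, and 0.0687 without pimasertib replicate 1). PLAU, urokinase, had -1.68 (SE 0.48, edgeR adjusted p = 0.0296), and its replicates lay far apart, at 136 and 185 CPM in pimasertib and 284 and 741 CPM in DMSO. Leaving out DMSO replicate 2 gave a log2 fold change of -0.82 and an adjusted p of 0.187, pimasertib replicate 1 0.188 and pimasertib replicate 2 0.138, and DESeq2 gave 0.0824. MMP3, stromelysin, had -1.49 in pimasertib (edgeR adjusted p = 0.00512) and -1.25 in palbociclib (adjusted p = 0.0398), where it was the 1 call of the list. The palbociclib call passed in none of the fits that left out 1 library (adjusted p of 0.0727 to 0.140). MET, the fifth called gene, was outside the rule for named genes and had a log2 fold change of -0.85 (edgeR adjusted p = 0.0250). The call was lost without DMSO replicate 2 (0.0764) or pimasertib replicate 1 (0.136) or 2 (adjusted p = 0.129).

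Of 10 immediate-early genes with binding sites for ternary complex factors and SRF, 7 were tested, and 1 fell and 1 rose in pimasertib. Among all tested genes 11.7% were called lower and 11.1% higher. The median log2 fold change of the 7 was 0.73, that of EGR1 (SE 1.03, edgeR adjusted p = 0.645), and 4 of the 7 were positive. MCL1, an anti-apoptotic gene, was at 304 and 251 CPM in pimasertib, 536 and 439 CPM in palbociclib and 702 and 605 CPM in DMSO (log2 fold change against DMSO -1.24, SE 0.24, edgeR adjusted p = 0.00535, and 0.0773 without pimasertib replicate 2). JUNB, an AP-1 subunit, went the other way, with 60.4 and 58.7 CPM in pimasertib, 23.0 and 27.9 CPM in palbociclib and 14.0 and 19.2 CPM in DMSO (1.84, SE 0.23, edgeR adjusted p = 4.63e-04). FOS, EGR2 and EGR3 were at 0 to 0.453 CPM, and EGR1 at 0.425 to 6.44 CPM. None of the 7 was called in palbociclib against DMSO.

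Set against palbociclib directly, pimasertib lowered 5 of the 7 ERK output genes. Over all tested genes 9.39% were called in this comparison, 4.31% lower and 5.07% higher. Log2 fold changes were -5.52 for DUSP4, -4.28 for SPRY4, -3.53 for SPRY2 and -3.42 for CCND1 (edgeR adjusted p of 1.42e-05, 1.59e-05, 1.59e-05 and 2.52e-04). Each of these 4 passed whichever library was left out. Of the 11 targets of the PEA3 group or ETS1, 3 were lower in pimasertib than in palbociclib and none higher. MMP1 was lower by a log2 fold change of -5.15 (SE 0.49, edgeR adjusted p = 1.49e-04), and passed in all 6 fits. PLAU (-1.85, adjusted p = 0.0373) and PLAUR (-1.42, adjusted p = 0.0322) each lost the call without palbociclib replicate 2 (0.140 for PLAU, 0.0932 for PLAUR), pimasertib replicate 1 (0.224 and 0.207) or pimasertib replicate 2 (adjusted p of 0.208 and 0.146), and PLAU was at -1.10 without palbociclib replicate 2. JUNB was the 1 called gene of the 7 immediate-early genes, higher in pimasertib by 1.22 (SE 0.22, edgeR adjusted p = 0.00664), with 0.0575 without pimasertib replicate 1 and 0.0600 without replicate 2. In the cascade, MAP2K1 was lower in pimasertib (-1.19, SE 0.22, edgeR adjusted p = 0.00676, and 0.0933 without pimasertib replicate 2). HRAS was lower as well (-0.79, SE 0.22, edgeR adjusted p = 0.0459), but not past the threshold without palbociclib replicate 1 (adjusted p = 0.399), pimasertib replicate 1 (0.156) or pimasertib replicate 2 (adjusted p = 0.269).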

How the data were processed

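RNA of HT-1080 cells was reverse transcribed from random hexamers, per the labels' protocols. CASAVA, DESeq2, HTSeq 0.6.1 and STAR 2.5 appear in the submitters' processing notes, which also list GRCh37 and hg19; their roles and settings are not given in the sources used here. Per the file headers, the authors deposited raw counts per gene, FPKM values and, for each drug against DMSO, log2 fold changes and adjusted p-values. The authors' comparison was used only to say which of the 10 genes it calls. The 2 tables were joined by gene ID. DMSO counts were identical in both, and a gene missing from 1 table was counted as 0 there, having no DMSO read.

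Counts were tested with edgeR 4.0.16 (R 4.3.3). Genes were kept by filterByExpr (minimum count 10, minimum total 15; 14839 genes), scaling was by TMM, and the 3 groups were fitted in 1 model by glmQLFit (robust) with two-sided tests by glmQLFTest. Adjusted p-values (Benjamini-Hochberg) cover every tested gene, and calls were made under 0.05. The SE is the absolute log2 fold change divided by the square root of F. The procedure was tested on simulated data. Likeness used log2 CPM with a prior count of 2. DESeq2 1.42.0 and limma 3.58.1 served as alternatives, beside other filters, scaling, samples and a replicate block. All 10 genes are named, and up to 4 called genes per list and direction. Members and lists were chosen with earlier results of these data known, and protein sequences were not used here. Floors of 3 counts cover counting error only.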

Additional observations from a re-analysis of the deposited data

How the results depend on the processing

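In pimasertib against DMSO 6 of the 10 ETS genes passed with every alternative scaling, filter and tool, with 5 to 6 when 1 library was left out and 8 with the replicate block. Over all genes the fits without 1 library gave 1103 to 3897 calls, and with the replicate number as a block 6551. In palbociclib against DMSO, 0 of the 10 passed with DESeq2 size factors, 0 with the 4 libraries of the comparison and 0 in every fit without 1 library, but 3 with no filter, 2 with DESeq2 and 4 with the replicate block. Over all genes that comparison had 1097 calls with no filter, 882 with DESeq2, 350 with the 4 libraries, 2953 with the replicate block and 332 to 751 without 1 library. In pimasertib against palbociclib the 10 genes gave 4 to 6 calls without 1 library and 8 with the replicate block, and all genes gave 2256 with no filter, 4702 with the replicate block and 458 to 1988 without 1 library. In that comparison 6 of the 10 passed with no filter, 6 with the 4 libraries of the comparison and 6 with DESeq2. All genes gave 1957 calls with the 4 libraries and 1773 with DESeq2. The cause of these moves was not tested. The replicate numbers are not said to pair libraries, though same-numbered libraries deviated together (correlation over genes 0.345 to 0.397). With the block, ETV4 (adjusted p = 0.00265), ELK3 (3.58e-04) and ELK1 (0.0233) passed besides ETS2 in palbociclib against DMSO, ETS1 (0.00535) and ETV6 (0.0434) passed in addition in pimasertib against DMSO, and ETS1 (1.85e-04), ELK1 (0.0441) and ETV6 (0.0339) in pimasertib against palbociclib, while COL1A1 lost its call in pimasertib against DMSO (0.0643). Some changes that passed in no fit also turned sign. ELK4 in pimasertib against DMSO was at 0.0016 with the stricter filter and -0.26 to 0.20 without 1 library. Without 1 library, log2 fold changes in palbociclib against DMSO ranged from -0.17 to 0.038 for ETV1, -0.22 to 0.40 for ETV5, -0.066 to 0.54 for ELK4, -0.32 to 0.42 for ETV6 and -0.025 to 0.086 for ELF1 and -0.098 to 0.17 for CIC, SRF ranged from -0.29 to 0.066 in pimasertib against DMSO, and ELK4 ranged from -0.55 to 0.015 in pimasertib against palbociclib.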
